A study of Homo sapiens with 24 samples.

Results

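The response to interferon-alpha (IFN-alpha) was followed in T47D-co cells that had also received R5020, a synthetic progestin that binds the progesterone receptor. Members were taken from the treatment labels: 3 libraries given R5020 and IFN-alpha and 3 given R5020 and water, 6 of the 24 libraries in the series, with every gene of the deposited table. T47D-co is a derivative of the human breast cancer line T47D that carries the progesterone receptor, and T47D-Y is a derivative that the study's design text calls null for it. The receptor's gene PGR was low but measured in T47D-Y, at 465.2 ± 18.5 scaled fragments (estimated sequenced fragments put on 1 scale for all libraries) with R5020 and water against 13260 ± 468 in T47D-co (SD, n = 3). The whole design crossed these 2 lines, IFN-alpha or water, and R5020 or its ethanol vehicle (EtOH), with 3 biological replicates in each of 8 groups. IFN-alpha was given at 20 IU per ml for 18 hours, and R5020 was then given at 10 nM for 6 hours. All cells grew in medium with serum and insulin, and both groups compared here received R5020, so any change that R5020 makes alike in both is not visible between them. The labels do not say from which cultures or days the replicates came, or whether a line is a clone, so p-values measure the spread between these libraries. The comparison shows which transcripts differ with IFN-alpha when the progesterone receptor has its ligand, and the same contrast in T47D-co given EtOH and in T47D-Y given R5020 serves as reference.

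Type I interferons such as IFN-alpha bind the receptor formed by IFNAR1 and IFNAR2, which activates the kinases JAK1 and TYK2. These phosphorylate transcription factors of the STAT family, among them STAT2, which join IRF9 in a complex that enters the nucleus and binds interferon-stimulated response elements in the promoters of antiviral genes. The progesterone receptor is a nuclear receptor that, once bound to a progestin, acts at genes such as FKBP5, a co-chaperone of steroid receptors, and ZBTB16, a transcription factor.

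The core letters of the interferon-stimulated response element, GAAANNGAAA on either strand, stood in the promoters of most of the genes with the largest rises. Promoters were matched by symbol to a RefSeq table for GRCh38.p14, whose windows hold 300 bases at each gene's start. Of the 15 genes with the largest rises that were named by the rule given with the methods, 14 had a promoter there, and 12 of the 14 held the core (85.7%). Among the 53 tested antiviral effector genes 45 had a promoter and 26 of these held it (57.8%), while 996 of all 27305 promoters did (3.65%). Of the 15 largest falls 6 had a promoter and 0 held it, which says only that these letters were not in those windows. The core TTCNNNGAA of the gamma-activated sequence stood in 9 of the 45 antiviral promoters (20.0%) and in 2152 of all promoters (7.88%). The letters TGTTCT of the progestin response element stood in 6 of the 45 (13.3%) and in 4056 of all (14.9%). The short core GCGTG, bound by the aryl hydrocarbon receptor, stood in 9919 of all promoters (36.3%). A match is a description of letters and no measured binding site. The 200 bases before the start are printed for 4 genes that rose, IFI6, ISG15, DDX60 and BST2, with the interferon core in capitals (2 overlapping matches in ISG15 and in BST2), and for CYP1A1, which fell, with GCGTG in capitals. In IFI6 (chr1:27672193-27672392, minus strand) the matches began 156, 115 and 93 bases before the start. In ISG15 (chr1:1013297-1013496, plus strand) they began 113 and 107 bases before it, in DDX60 (chr4:168318753-168318952, minus strand) 88 and 53, in BST2 (chr19:17405631-17405830, minus strand) 130 and 124, and in CYP1A1 (chr15:74725529-74725728, minus strand) 57.
IFI6: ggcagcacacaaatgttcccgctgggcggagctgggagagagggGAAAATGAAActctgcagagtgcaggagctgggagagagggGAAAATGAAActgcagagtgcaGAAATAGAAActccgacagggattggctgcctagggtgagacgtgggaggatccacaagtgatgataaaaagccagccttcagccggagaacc
ISG15: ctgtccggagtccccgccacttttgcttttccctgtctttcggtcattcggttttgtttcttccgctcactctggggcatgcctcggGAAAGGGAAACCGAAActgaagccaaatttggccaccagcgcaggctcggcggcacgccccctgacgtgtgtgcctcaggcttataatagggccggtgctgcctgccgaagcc
DDX60: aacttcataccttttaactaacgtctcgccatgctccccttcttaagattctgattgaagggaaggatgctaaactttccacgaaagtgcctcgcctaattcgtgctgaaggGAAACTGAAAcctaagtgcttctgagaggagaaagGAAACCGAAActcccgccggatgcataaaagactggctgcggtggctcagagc
BST2: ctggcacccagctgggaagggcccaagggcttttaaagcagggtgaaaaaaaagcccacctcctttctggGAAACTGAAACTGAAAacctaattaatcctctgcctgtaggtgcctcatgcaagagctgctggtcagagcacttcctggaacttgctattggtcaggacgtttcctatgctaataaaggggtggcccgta
CYP1A1: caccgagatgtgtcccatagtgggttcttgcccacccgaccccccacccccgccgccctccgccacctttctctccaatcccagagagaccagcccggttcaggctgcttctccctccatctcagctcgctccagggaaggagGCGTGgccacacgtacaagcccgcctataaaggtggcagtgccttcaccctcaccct

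The 6 libraries held 15375324 to 23845419 estimated fragments. Levels are given as scaled fragments, which are estimated fragments divided by a factor per library that puts all 24 libraries on 1 scale, and they compare a gene between libraries, not 1 gene with another, since they are not per length. Libraries correlated at 0.98255 to 0.98754 within a group and at 0.98075 to 0.98564 between the 2 groups (log2 scale, across genes, which are not independent replicates), and 5 of the 6 were closest to a library of their own group. The cells carried the luminal breast markers: KRT8 (10600 to 12300 scaled fragments), KRT18, KRT19, EPCAM (1490 to 1630), CDH1, GATA3, FOXA1, XBP1 and ESR1 were abundant in all 6, while the luminal marker TFF1 stood at 0 to 5.12. The leukocyte markers PTPRC (1.06 to 2.52), CD3E, LYZ and NKG7 (each at 2.65 or less) were near 0 in both groups. The stromal marker COL1A1 stood at 321 to 375 with water and 286 to 299 with IFN-alpha, and VIM at 5.73 to 20.9 over both groups. These are bulk libraries, so fewer cells of a kind and less RNA per cell cannot be told apart. A composition difference ran along with the groups. The small nuclear and cytoplasmic RNAs of the RN7 family, MALAT1 and RPPH1 together took 5.50 to 5.81% of fragments with water and 4.42 to 4.77% with IFN-alpha, and ribosomal protein transcripts 1.24 to 1.29% and 1.07 to 1.10%. In the wider series 4 libraries stood apart with 0.942 to 1.08% of mitochondrial transcripts, all given water: replicate 1 of T47D-Y with EtOH, replicates 1 and 2 of T47D-Y with R5020, and replicate 2 of T47D-co with EtOH. None is among the 6 (3.17 to 4.11%), but they enter the pooled estimate of the spread and the comparisons with the other arms.

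Most antiviral genes were higher with IFN-alpha in T47D-co given R5020, several of them by large amounts, and many other transcripts differed by small amounts. Fold changes are limma estimates on the log2(scaled fragments + 1) scale ± SE, 3 libraries against 3, and calls were made at 0.05 on p-values adjusted by Benjamini-Hochberg over all 20162 tested entries. Of these, 1526 rose (7.57%) and 743 fell (3.69%), 2269 in all. The changes were mostly small. The median absolute log2 change of the called entries was 0.20, with 1998 of them under 0.5, 139 from 0.5 to 1 and 132 at 1 or more. Among entries of 1 protein-coding gene with a mean of at least 50 scaled fragments in a group, 21 rose at least 2-fold and 1, CYP1A1, fell as much. The count moved with single libraries: it was 1411 without water replicate 1, 1215 without water replicate 2, 1153 without IFN-alpha replicate 1 and 1255 without IFN-alpha replicate 2. It was 1362 with the 6 libraries alone, and 1307 against 2042 among protein-coding genes with a correction for GC content. With the share of RN7, MALAT1 and RPPH1 as a covariate it was 76. That share separates the 2 groups in these 6 libraries, while its slope is set by the spread within all 8 groups. The covariate fit put the RN7 member RN7SL1 at 12.81, although its values were lower with IFN-alpha, so its estimates are not reliable for every entry. The split between rises and falls moved with the scale, at 710 rises and 696 falls with quantile normalization, 849 and 804 with scaling to the total, 634 and 1026 with the total without RN7, MALAT1 and RPPH1, and 160 and 7041 on the deposited scale, which puts the typical entry at -0.165 against 0.02 here. Small changes are therefore relative to the typical gene on the scale used.

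**Figure D1:**
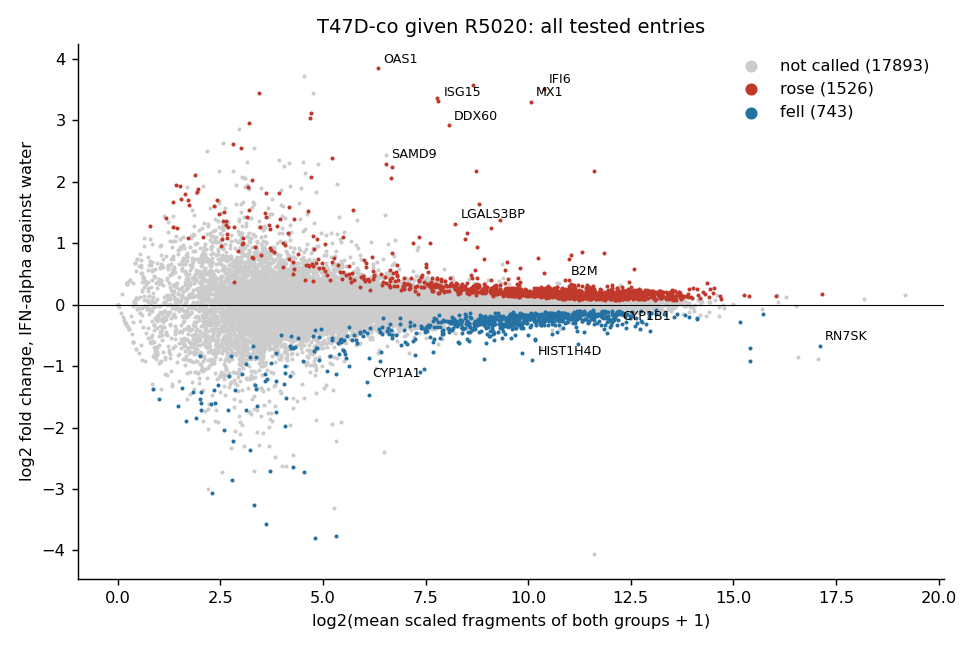
Log2 fold change with IFN-alpha against water (y axis) by the log2 mean of scaled fragments of both groups plus 1 (x axis, log2 scale) for all 20162 tested entries in T47D-co given R5020, 1 point per entry, red for the 1526 that rose, blue for the 743 that fell and grey for those not called. OAS1, IFI6, ISG15, MX1 and DDX60 stand between 2.92 and 3.85, while most called points lie close to 0.

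Most of the antiviral effectors rose. Of the 53 tested members of that list 42 rose (79.2% against 7.57% over all entries) and 0 fell. Their median log2 change was 1.003 against 0.02 over all tested entries. IFI6, an interferon-induced protein of organelle membranes, held 179.6, 208.4 and 257.2 scaled fragments with water and 2377, 2462 and 2505 with IFN-alpha, in replicate order. The IFI6 groups lay far apart (log2 change 3.52 ± 0.09, adjusted p = 3.3e-19). ISG15, a ubiquitin-like modifier, held 35.0, 46.2 and 39.0 with water and 437.9, 368.4 and 412.8 with IFN-alpha. Its lowest treated library stood well above its highest control (3.32 ± 0.15, adjusted p = 6.08e-14). MX1, a GTPase that blocks viral nucleocapsids, held 140.9, 192.4 and 270.8 with water and 1999, 1910 and 1899 with IFN-alpha. For MX1 the spread with water was wider than the spread with IFN-alpha, and the change was 3.31 ± 0.14 (adjusted p = 1.14e-14).

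The oligoadenylate synthetases, which make the second messenger that activates RNase L, all rose. OAS3 went from 1021, 1143 and 1229 to 5036, 5089 and 5267 scaled fragments (2.18 ± 0.06, adjusted p = 3.3e-19). OAS2 went from 34.1, 76.2 and 85.8 to 808.2, 738.0 and 674.2 (3.58 ± 0.22), and OAS1 from 4.41, 9.02 and 19.95 to 147.2, 157.1 and 144.1 (3.85 ± 0.31). No treated library of any of the 3 reached down to a control library. These genes share a locus, between whose entries the authors' software divided fragments, and the summed locus rose by 2.32. The same division bears more heavily on the IFIT family, which binds viral RNA. IFIT1 held 22.0, 30.9 and 74.7 with water and 473.9, 408.9 and 312.2 with IFN-alpha (3.37 ± 0.30) and IFIT3 2.84 to 20.7 and 29.9 to 48.3 (2.08 ± 0.41), while their summed locus rose by only 0.75. IFIT2 at the same locus was not called (0.71 ± 0.33, adjusted p = 0.173), and IFIT5, alone at its locus, rose by 1.00 ± 0.13.

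Further members spanned a range of functions and sizes. BST2, the tetherin that holds budding virus at the cell surface, went from 1773, 1864 and 1787 scaled fragments to 3246, 3252 and 3333. Both groups were narrow beside the gap between them (0.86 ± 0.03, adjusted p = 4.43e-15). ADAR, an editor of double-stranded RNA, went from 4888, 4840 and 4869 to 7140, 7404 and 7297 (0.58 ± 0.03, adjusted p = 2.39e-14), and EIF2AK2, the kinase PKR that halts translation, from 1408, 1450 and 1724 to 2772, 2755 and 2459 (0.80 ± 0.06). IFI27 rose by 2.24 ± 0.22 and SAMD9 by 2.30 ± 0.22. XAF1, a pro-apoptotic protein, rose from 3.68 to 5.20 scaled fragments up to 39.9 to 51.7 (3.03 ± 0.30). PARP14, PARP9 and PARP12, which are ADP-ribosyltransferases, rose by 1.64 ± 0.08, 1.25 ± 0.11 and 0.56 ± 0.07, and DTX3L, the ubiquitin ligase that partners PARP9, by 1.38 ± 0.07. LGALS3BP, a secreted glycoprotein, rose by 1.32 ± 0.09, SAMHD1, which removes nucleotides needed by viruses, by 0.76 ± 0.06, and UBE2L6, the conjugating enzyme for ISG15, by 0.75 ± 0.09.

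Calls were less stable in several other members. RSAD2, the antiviral enzyme viperin, stood at 3.68 to 9.10 scaled fragments with water and 11.6 to 26.6 with IFN-alpha (1.42 ± 0.32; 1.73 at its summed locus), and its call was lost without IFN-alpha replicate 2, where it was 1.06. IFI44L stood at 0.84 to 2.76 and 2.11 to 7.16 (1.11 ± 0.36, adjusted p = 0.0451). The IFI44L groups overlapped, and the call was lost without water replicate 2 (0.88) or 3 (1.05) and without IFN-alpha replicate 1 (1.00) or 2 (0.82), as well as with the replicate block and under most other settings. TDRD7 rose by 0.31 ± 0.07, lost without IFN-alpha replicate 1 (0.23), and SHISA5 by 0.24 ± 0.06, lost without water replicate 1 or IFN-alpha replicate 3 (0.20 in both). Of the 11 members not called, MX2, GBP3 and IFI16 held at most 19.5 scaled fragments in any of the 6 libraries and GBP1 at most 66.5. HERC5, which attaches ISG15 to proteins, stood at 280.9, 284.0 and 322.5 with water and 375.5, 330.5 and 360.0 with IFN-alpha (0.26 ± 0.12, adjusted p = 0.174). LY6E (-0.19 ± 0.07), TRIM25 (-0.10 ± 0.04) and ZC3HAV1 (-0.04 ± 0.05) had estimates below 0, the last above 0 without water replicate 3 (0.02), and ISG20, TRIM21 and IFIT2 were also not called. Over the fits that left out 1 of the 6 libraries, 40 to 42 of the 53 rose and 0 to 1 fell. With quantile or total scaling 41 rose and 1 fell, and on the deposited scale 38 rose and 3 fell. With the share of RN7, MALAT1 and RPPH1 as a covariate 28 of the 53 rose and 0 fell. That share separates the 2 groups in these 6 libraries, and the covariate widens the median SE from 0.098 to 0.173.

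**Figure D2:**
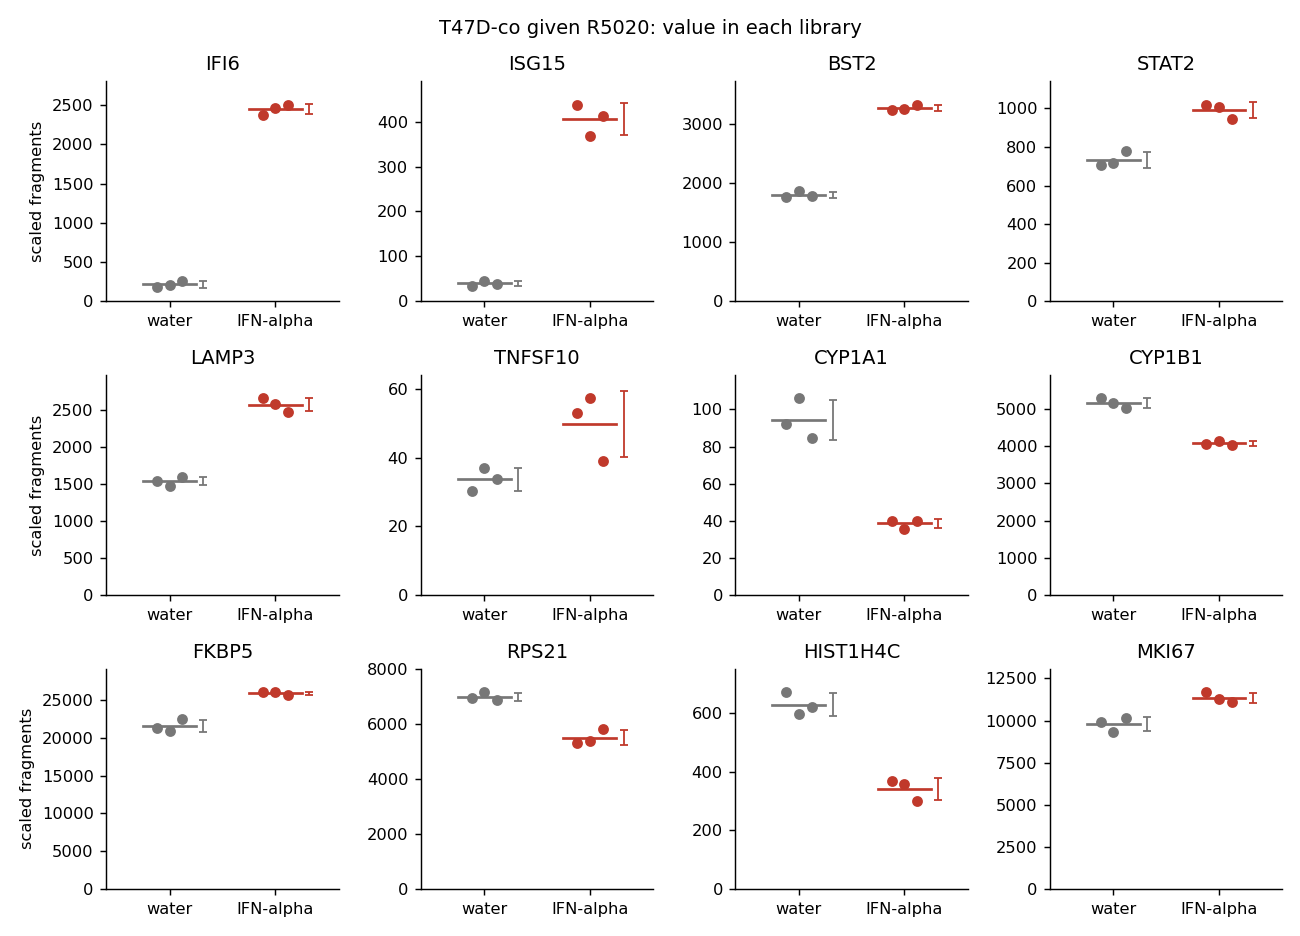
Scaled fragments (y axes, from 0) of 12 genes in each of the 6 libraries of T47D-co given R5020, water in grey and IFN-alpha in red, with 1 point per library, a line at the group mean and a bar for its SD (n = 3). The groups are apart in every panel, by most in IFI6 and ISG15 and by least in TNFSF10, where 39.2 with IFN-alpha lies close to 37.1 with water.

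RNA sensors and the signalling proteins of the interferon pathway rose in part. Of 12 tested sensing genes 4 rose (33.3% against 7.57% over all entries) and 0 fell (median 0.165). DDX60, a helicase that assists RNA sensing, went from 64.5, 52.1 and 67.6 scaled fragments to 506.9, 488.1 and 417.1 (2.92 ± 0.12, adjusted p = 1.21e-14). IFIH1, the sensor MDA5, rose by 1.07 ± 0.08 and DDX58, the sensor RIG-I, by 0.56 ± 0.08. DDX60L rose by 2.06 ± 0.17 as an entry, but its summed locus by 0.05, which was not called. The adaptor MAVS (-0.12 ± 0.05) and the kinase TBK1 (0.08 ± 0.05) were not called.

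Among 12 tested receptor and JAK-STAT genes 5 rose (41.7% against 7.57% over all entries) and 0 fell, with a median of 0.09. STAT2, the partner of IRF9 named above, went from 705.5, 714.3 and 777.6 scaled fragments to 1019, 1008 and 946. The treated libraries all lay above the controls (0.44 ± 0.04, adjusted p = 1.89e-07). STAT5B rose by 0.26 ± 0.06, JAK1 by 0.12 ± 0.03 and STAT3 by 0.11 ± 0.03. Calls of this small size were lost or turned on other scales: on the deposited scale JAK1 was -0.06 and STAT3 -0.08, and the call of STAT3 was lost without water replicate 1 (0.11) or 2 (0.10) and without IFN-alpha replicate 1 (0.10) or 2 (0.12). The receptor chain IFNAR1 (0.01 ± 0.05) and the kinase TYK2 (-0.14 ± 0.07) were not called. Of 8 tested interferon regulatory factors 1 was called and rose (12.5%), beside 7.57% over all entries. It was IRF7, the amplifier of interferon gene expression, from 141.8, 155.5 and 162.5 to 225.6, 209.8 and 227.0 (0.53 ± 0.10, adjusted p = 0.00103). IRF1 stood at 0.00 ± 0.13. Of 17 brakes on cytokine signalling 2 rose (11.8%), a share that lies near the 7.57% over all entries. USP18, the protease that removes ISG15, rose by 0.70 ± 0.17, lost without water replicate 1 (0.61). PIAS1 rose by 0.17 ± 0.05, which was -0.02 on the deposited scale. It was called in only 1 of its 6 leave-one-out fits (0.13 to 0.24 over the 6).

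Of 10 tested antigen processing genes 6 rose and 0 fell (median 0.31), 60.0% against the 7.57% of all entries that rose. With the composition covariate 1 of the 10 rose, and on the deposited scale 2 rose and 2 fell. B2M, the small invariant subunit of class I molecules, went from 1627, 1625 and 1693 scaled fragments to 2187, 2254 and 2079 (0.40 ± 0.05, adjusted p = 7.33e-06). NLRC5, the transactivator of class I genes, stood at 6.75 to 8.18 with water and 19.0 to 21.3 with IFN-alpha (1.29 ± 0.22). The proteasome activator subunits PSME1 and PSME2 rose by 0.24 ± 0.05 and 0.28 ± 0.08 (0.17 and 0.40 at their summed loci), the latter lost without water replicate 2 (0.25) or 3 (0.28) or IFN-alpha replicate 1 (0.24). ERAP1 rose by 0.34 ± 0.07 and PDIA3 by 0.15 ± 0.04 as entries, but their summed loci stood at 0.06 and -0.01. PDIA3 was also -0.04 on the deposited scale, and it was not called without water replicate 1 (0.15) or 2 (0.10) or IFN-alpha replicate 1 (0.15) or 2 (0.11). HLA-B was not called, at 154.7, 147.1 and 166.4 with water and 307.9, 158.6 and 164.7 with IFN-alpha, a rise in replicate 1 alone. Of 14 tested chemokines and immune ligands 1 rose (7.14%), a share near the 7.57% over all entries. It was TNFSF10, the death ligand TRAIL, from 30.4, 37.1 and 33.8 to 53.1, 57.3 and 39.2 (0.54 ± 0.14, adjusted p = 0.0158). Its call was lost without water replicate 1 (0.46), IFN-alpha replicate 1 (0.48) or IFN-alpha replicate 2 (0.43). The chemokine CXCL10 stood at 0.952 to 9.15 scaled fragments over both groups and did not differ detectably at that level.

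The 15 largest falls named by the rule were CYP1A1, 6 histone genes and 8 others. Among the others DDN stood at -0.74 ± 0.23, TMEM160 at -0.59 ± 0.14, NT5DC2 at -0.57 ± 0.08, FNDC4 at -0.57 ± 0.17 and ICAM3 at -0.56 ± 0.11. The call of DDN was lost without water replicate 1 (-0.79) or 2 (-0.57) or IFN-alpha replicate 1 (-0.41), that of TMEM160 without water replicate 2 (-0.49) or IFN-alpha replicate 2 (-0.45), and that of FNDC4 in 5 of the 6 such fits, all but the 1 without IFN-alpha replicate 3. CYP1A1, a xenobiotic-metabolizing enzyme and classical target of the aryl hydrocarbon receptor, went from 92.1, 105.9 and 84.5 scaled fragments to 39.8, 35.8 and 40.1. Every treated library held less than the lowest control by a wide margin (-1.26 ± 0.11, adjusted p = 6.16e-08). CYP1B1, a related enzyme that hydroxylates oestrogens, went from 5276, 5148 and 5019 to 4057, 4146 and 4022 (-0.34 ± 0.03, adjusted p = 2.98e-07; -0.31 at the summed locus). They were the 2 members called, both lower, of 11 tested genes of that pathway (median -0.06), or 18.2% against 3.69% of all entries that fell. The receptor AHR (0.05 ± 0.04), its partner ARNT (0.09 ± 0.04) and NQO1 (-0.02 ± 0.04) were not called.

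The replication-dependent histone genes were grouped after their values were seen. Of 51 entries 22 fell (43.1% against 3.69% over all entries), with a median of -0.25. The linker histone HIST1H1D was the 1 that rose (0.38 ± 0.07). HIST1H4D went from 1496, 1466 and 1339 scaled fragments to 793.5, 735.8 and 769.7 (-0.90 ± 0.11, adjusted p = 1.36e-05). HIST1H4C went from 672.3, 596.7 and 620.3 to 368.9, 357.2 and 298.8 (-0.88 ± 0.10, adjusted p = 3.43e-06), and HIST1H3B from 2816, 2900 and 2958 to 1834, 1655 and 2122 (-0.64 ± 0.10). In each of these the highest treated library lay below the lowest control. With the composition covariate 6 of the 51 fell. In T47D-co given EtOH the same list had 2 rises and 3 falls and a median of 0.04, and in T47D-Y given R5020 it had 9 rises and 6 falls and a median of 0.09. The test of the difference called 0 of the 51 between R5020 and EtOH and 5 between the lines, all lower in T47D-co.

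In T47D-co given EtOH in place of R5020, 3 libraries against 3, IFN-alpha gave 115 rises (0.57%) and 87 falls (0.432%). The effects of IFN-alpha with and without R5020 differed in 203 entries, 176 with the higher value (0.873%) and 27 with the lower value (0.134%) given R5020. For most of the antiviral list no difference was called: 0 of 53 were higher and 5 lower given R5020, and 44 of the 53 rose given EtOH, with a median of 1.13. The level of IFI6 went from 298.8 ± 3.26 to 3359 ± 171 scaled fragments given EtOH (SD, n = 3), a change of 3.49 against 3.52 given R5020, with a difference of 0.03 (adjusted p = 0.935). For ISG15 the difference was 0.34, for MX1 0.18 and for OAS3 0.06, none of them called. Of the 115 entries that rose given EtOH, 80 also rose given R5020 (69.6% of the former and 5.24% of the latter) and 6 were called in the difference. The median change over the 115 was 0.74 given EtOH and 0.44 given R5020. Of the 87 that fell, 28 also fell given R5020 (32.2% and 3.77%), 3 rose and 27 were called in the difference, with medians of -0.30 and -0.06. Both sets were picked by their call given EtOH, which by itself favours larger changes there. These medians and the calls in the difference therefore do not measure a weaker response given R5020. The count of 203 was unstable: leaving out 1 library gave 75 to 416, over 1.5 times away in 10 of 12 fits, all but those without EtOH+water replicate 3 (160) and R5020+water replicate 3 (238), and without the 4 low-mitochondrial libraries it was 63. The split changed to 49 and 18 with quantile normalization, 55 and 19 with the total, and 48 and 18 with the total without RN7, MALAT1 and RPPH1.

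LAMP3, a lysosomal membrane protein induced by interferon, had the largest of the 5 differences called in the antiviral list. Given R5020 it held 1545, 1479 and 1592 scaled fragments with water and 2657, 2588 and 2478 with IFN-alpha (0.74 ± 0.08, adjusted p = 3.92e-07). Given EtOH the means were 189.1 and 930.5, a change of 2.30. The mean with R5020 and water (1539) was higher than the mean with EtOH and IFN-alpha. The difference of -1.56 ± 0.11 (adjusted p = 1.86e-09) stayed between -1.65 and -1.47 over the 31 other settings tried. TRIM14, a mitochondrial adaptor in antiviral signalling, had the same form: 1479, 1476 and 1533 with water and 1811, 1726 and 1870 with IFN-alpha given R5020 (0.27 ± 0.05; 0.16 at the summed locus), against means of 484.6 and 807.5 given EtOH (0.74). Its difference of -0.47 (adjusted p = 0.00183) was -0.09 and not called at the summed locus. The remaining lower members of the antiviral list were PARP12 (-0.40), ZC3HAV1 (-0.32) and TRIM25 (-0.27). The PARP12 difference lost its call in 16 of 31 settings, among them 9 of the 12 fits without a library (-0.36 to -0.41 in these), ZC3HAV1 and TRIM25 in 3 each, TRIM25 among them without R5020+water replicate 2 (-0.24).

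In the aryl hydrocarbon receptor list the falls were smaller given R5020. CYP1B1 fell from a mean of 3018 to 1274 given EtOH (-1.24) and by 0.34 given R5020, where its mean with water was 5147, and the difference of 0.91 (adjusted p = 1.04e-11) held in all 31 other settings, between 0.82 and 0.93. CYP1A1 went from 139.7 to 30.6 given EtOH (-2.16), and its difference of 0.90 (adjusted p = 0.00665) lost its call in 4 settings, among them without the 4 low-mitochondrial libraries, with values of 0.79 to 1.01 over all of them. TIPARP, a repressor of that receptor, stood at 10650, 10570 and 10770 with water and 11900, 12260 and 11350 with IFN-alpha given R5020, which was not called (0.15 ± 0.05) except without IFN-alpha replicate 3 (0.18) and in 4 other settings. Given EtOH it fell by 0.25, from 1084 to 915. Its difference was 0.40 (adjusted p = 0.0126). Of the 11 genes 3 were thus higher in the difference and 0 lower.

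T47D-Y given R5020 responded to IFN-alpha with larger changes of antiviral genes. There 620 entries rose (3.08%) and 341 fell (1.69%), and 48 of the 53 antiviral genes rose with a median of 2.13. Between the lines 78 entries had the higher value in T47D-co (0.387%) and 98 the lower (0.486%), and 39 of the 53 antiviral genes were lower and 0 higher. IFI6 went from 84.2 ± 7.99 to 3708 ± 104 scaled fragments in T47D-Y (SD, n = 3), a change of 5.45, and the line difference was -1.93 (adjusted p = 5.8e-10). ISG15 went from 13.9 to 582.4 (5.31, line difference -2.00) and MX1 from 157.6 to 4213 (4.74, line difference -1.43). BST2, SAMHD1 and UBE2L6 differed by -0.67, -1.37 and -1.37, and among the sensors DDX58 by -1.43 and IFIH1 by -1.12. For IFI6 and ISG15 the mean with water was lower in T47D-Y than in T47D-co (215.1 and 40.1 there) and the mean with IFN-alpha higher (2448 and 406.4 in T47D-co). IRF7 (-1.09) and B2M (-0.64) were also lower in T47D-co. In the other direction CYP1A1 (1.03) and CYP1B1 (0.61) fell less in T47D-co than in T47D-Y, where CYP1A1 went from 666.5 to 135.1 and CYP1B1 from 8720 to 4524. The 2 lines differ in more than the receptor, and which of their differences goes with these sizes was not tested. The count of 176 was 104 without T47D-Y R5020+water replicate 1 and 64 without the 4 low-mitochondrial libraries, with 12 higher and 52 lower in T47D-co. That last fit leaves T47D-Y R5020+water with 1 library, which is assumed to vary like the other groups. The split of 78 and 98 was 111 and 83 with scaling to the total and 9391 and 90 on the deposited scale.

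**Figure D3:**
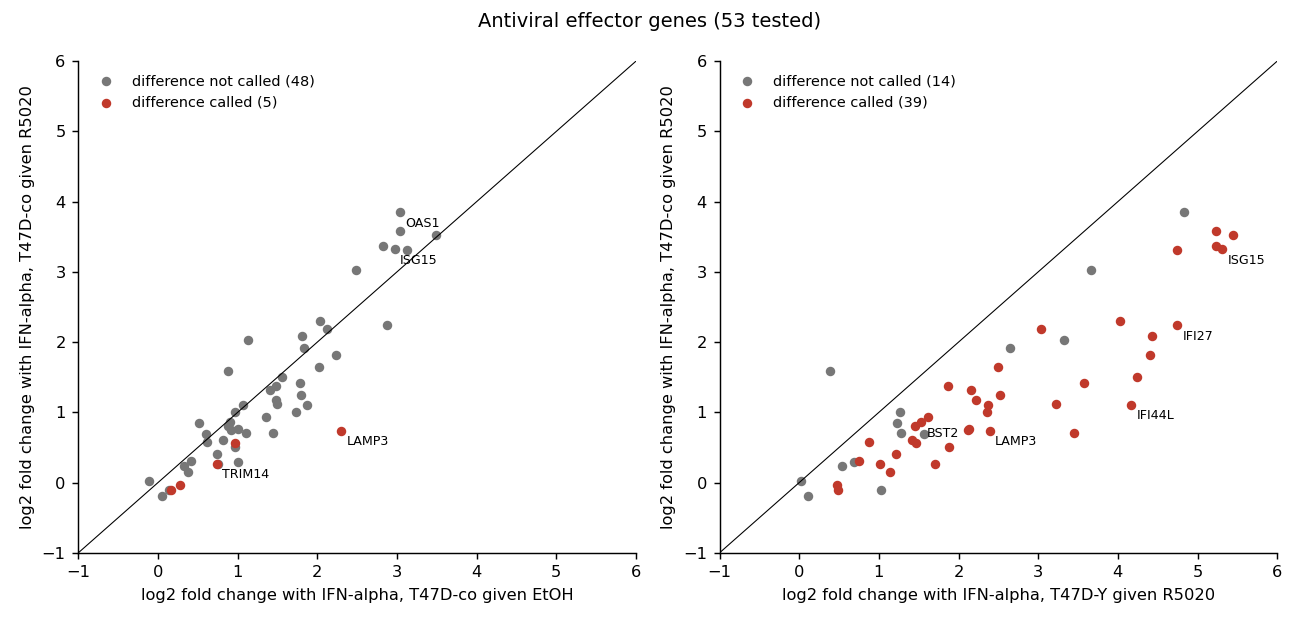
Log2 fold change with IFN-alpha of the 53 tested antiviral genes in T47D-co given R5020 (y axes) against T47D-co given EtOH (left x axis) and T47D-Y given R5020 (right x axis), 1 point per gene, with a line of equality and red where the difference was called (5 at left, 39 at right). LAMP3 lies below the line in both panels, with 0.74 against 2.30 and 2.39.

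Of 35 tested progestin and glucocorticoid targets 4 rose and 1 fell, with a median of 0.03. In this fit of all 24 libraries the shares (11.4% and 2.86%) lie near those over all entries (7.57% and 3.69%). They moved with the setting. With the 6 libraries alone 8 of the 35 rose and 1 fell, where 974 of all 20162 entries rose. With the GC correction 6 rose and 1 fell, where 829 of 12401 protein-coding genes rose. On the deposited scale 0 rose and 9 fell, and with the composition covariate 0 were called. FKBP5 went from 21320, 20970 and 22490 scaled fragments to 26080, 26050 and 25660. The treated libraries all lay above the controls, by a small margin (0.26 ± 0.04, adjusted p = 0.000313), and on the deposited scale the change was 0.08 and not called. Given EtOH, FKBP5 stood at 2077 with water and 2113 with IFN-alpha (0.02), and the difference of 0.24 was not called (adjusted p = 0.0518). ERRFI1, a feedback inhibitor of the EGF receptor, rose by 0.26 ± 0.05, and ELF5, a transcription factor of the mammary epithelium, went from 1884, 1884 and 1900 to 2114, 2245 and 2140 (0.20 ± 0.03, adjusted p = 9.42e-05). PRLR, the prolactin receptor, rose by 0.14 ± 0.03 and was -0.05 on the deposited scale. TSC22D3, the glucocorticoid-induced leucine zipper, fell by 0.26 ± 0.07, which lost its call without water replicate 1 (-0.24) or 2 (-0.23) or IFN-alpha replicate 1 (-0.23) or 2 (-0.25). ZBTB16 stood at 6191, 6405 and 6460 with water and 7288, 7433 and 7428 with IFN-alpha. These groups did not overlap, but the pooled spread, which takes in groups with means of 9.77 and 5.79 (T47D-co given EtOH) and 34.4 and 29.95 (T47D-Y given R5020), left the change of 0.22 ± 0.31 uncalled, and it was called with the 6 libraries alone. PGR itself went from 13730, 13260 and 12790 to 11810, 11860 and 12050 (-0.15 ± 0.05, adjusted p = 0.0376), lost without water replicate 1 (-0.13) or 2 (-0.15) or IFN-alpha replicate 1 or 2 (-0.15 in both). Among 27 oestrogen response and luminal genes 3 rose and 1, PGR, fell (median -0.02), shares of 11.1% and 3.70% that lie near those over all entries, and 0 were called with the covariate. ESR1 rose by 0.15 ± 0.04, was -0.04 on the deposited scale, and was not called without water replicate 1 (0.14) or 2 (0.13) or IFN-alpha replicate 1 (0.14) or 2 (0.13).

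Of 34 tested G2/M genes 14 rose and 0 fell, with a median of 0.13. That is 41.2% against 7.57% over all entries, but with the composition covariate 0 of the 34 rose. MKI67, the proliferation antigen Ki-67, went from 9934, 9300 and 10140 scaled fragments to 11680, 11260 and 11090 (0.21 ± 0.03, adjusted p = 0.000111), NUSAP1, a spindle protein, rose by 0.24 ± 0.04 and KIF11, a spindle motor, by 0.23 ± 0.04. On the deposited scale 0 of the 34 rose and 8 fell, and with a correction for GC content 4 rose. Over the fits without a library 6 to 15 rose. Of 38 G1/S and replication genes 4 rose and 0 fell (median 0.05), a share of 10.5% that lies near the 7.57% over all entries, among them POLA1, the catalytic subunit of DNA polymerase alpha, by 0.20 ± 0.03, and on the deposited scale 0 rose and 20 fell. With the composition covariate 0 of the 38 were called. Given EtOH 1 of the 34 G2/M genes rose (median 0.06), and in T47D-Y given R5020 14 rose and 0 fell (median 0.13). Neither the difference between R5020 and EtOH nor that between the lines was called in any of the 34.

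Ribosomal protein genes shifted downward. Of 68 tested members 45 fell (66.2% against 3.69% over all entries) and 0 rose (median -0.21). Each fall was 0.50 or less on the log2 scale. RPS21, of the small subunit, went from 6957, 7171 and 6895 scaled fragments to 5324, 5386 and 5820 (-0.35 ± 0.05, adjusted p = 0.000236). IFN-alpha replicate 3 stood above the other treated libraries and below every control. RPL18, of the large subunit, fell by 0.34 ± 0.06, at a shared locus that fell by 0.32. The count was 33 to 43 over the fits without a library and 51 with the GC correction. With the composition covariate 0 fell and 1 rose, RPS29, at an estimate of 8.93 and not called without the covariate. Given EtOH, 0 of the 68 were called (median -0.05), and in T47D-Y given R5020 35 fell and 0 rose (median -0.19). In the difference between R5020 and EtOH 1 of the 68 was called. Nuclear-encoded respiratory chain genes had 13 falls (22.4%) and 0 rises among 58 (median -0.10). UQCR10, a small subunit of the cytochrome bc1 complex, went from 697.2, 681.5 and 674.9 to 589.2, 561.8 and 575.4 (-0.25 ± 0.06). Without a library 5 to 17 of the 58 fell, 0 with the composition covariate, and given EtOH 0 were called.

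Other lists moved in few members, and their shares stand beside 7.57% of all tested entries that rose and 3.69% that fell. In the unfolded protein and integrated stress response 2 of 24 genes rose (8.33%) and 4 fell (16.7%), with a median of -0.01. The transcription factor ATF4 stood at -0.19 ± 0.04, lost without water replicate 2 or IFN-alpha replicate 1 (-0.16 in both). Of 15 heat shock genes 1 rose (6.67%) and 2 fell (13.3%). HSPB1 fell by 0.40 ± 0.10, lost without water replicate 2 (-0.33) or IFN-alpha replicate 1 or 2 (-0.34 in both). Of 17 NF-kappaB subunits and targets 3 fell (17.6%) and 0 rose (median -0.06). With the GC correction 0 of the 17 fell, with the 6 libraries alone 1, and over the fits without a library 0 to 5. Of 16 AP-1 and immediate early genes 0 were called. Sterol and fatty acid synthesis had 2 rises and 2 falls among 23 (8.7% each), and glycolysis and hypoxia 1 and 1 among 22 (4.55% each). The death receptor, caspase and BCL2 list had 3 rises (11.5%) and 0 falls among 26. Of 11 basal and mesenchymal genes 1 (9.09%), ITGB4, fell (-0.23 ± 0.06). On the deposited scale each of these 8 lists had 0 rises and 3 to 20 falls, and with the composition covariate 0 of their members were called.

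**Figure D4:**
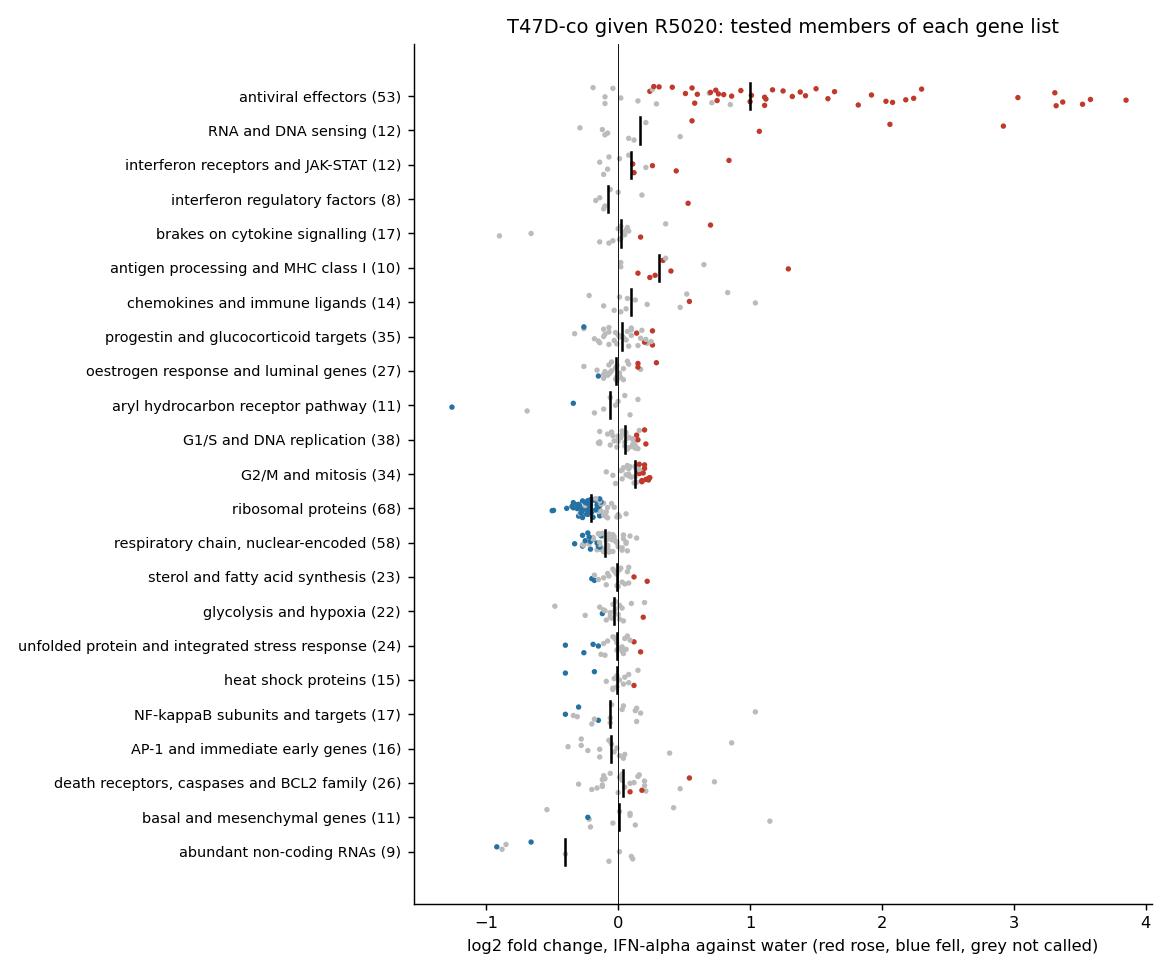
Log2 fold change with IFN-alpha in T47D-co given R5020 (x axis) of the tested members of 23 gene lists (y axis), 1 point per gene, coloured where called, with a black bar at the list median. The antiviral median of 1.003 stands apart from the other lists, while the ribosomal protein points crowd just below 0 around -0.21.

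Abundant non-coding RNAs changed along with the composition noted above. RN7SK, a regulator of transcript elongation, went from 180000, 163200 and 174300 scaled fragments to 121800, 115700 and 91420 (-0.66 ± 0.09, adjusted p = 6.37e-05), and RPPH1, the RNA of RNase P, fell by 0.92 ± 0.11 at a shared locus. RN7SL1, the RNA of the signal recognition particle, went from 183100, 193400 and 159700 to 95430, 98250 and 96730. Its groups lay far apart, but the estimate of -0.88 ± 2.30 was not called, since the pooled spread includes T47D-Y R5020 water libraries at 81880 ± 72600. MALAT1 stood at 300800, 272100 and 286800 with water and 320500, 315500 and 284700 with IFN-alpha, overlapping and not called (0.10 ± 0.05).

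The direction of the small changes followed the GC content of the transcripts. Among 12401 tested protein-coding genes sorted by GC content into 10 bins of equal size, the median log2 change ran from 0.103 in the lowest bin (30.9 to 40.0% GC), where 243 rose and 1 fell, to -0.141 in the highest (62.5 to 75.2%), where 7 rose and 126 fell. Given EtOH the same medians were 0.005 and -0.021, and in T47D-Y given R5020 they were 0.043 and -0.065. By library, the median of the highest bin minus that of the lowest, relative to each gene's mean over the 24 libraries, was 0.092, 0.229 and 0.061 with water and -0.222, -0.198 and 0.041 with IFN-alpha, so IFN-alpha replicate 3 lay nearer to the control libraries than to the other treated ones. With each library corrected for GC content 829 genes rose and 478 fell, 1307 calls against 2042 among the same genes without the correction, and antiviral rises numbered 41 of 53. With the composition share as a covariate 76 entries were called, 53 higher and 23 lower, among them ISG15, IFI6, MX1, OAS1, OAS2, OAS3, IFIT1, DDX60, STAT2, BST2, B2M and LAMP3 as rises and CYP1A1, CYP1B1, HIST1H4C and HIST1H4D as falls. The largest rises of the covariate fit, RN7SL1 (12.81), RN7SL2 (12.44), RPS29 (8.93) and LRR1 (7.13), were not called without the covariate. Beyond these 2 settings the part of GC content and composition in the small changes was not tested.

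**Figure D5:**
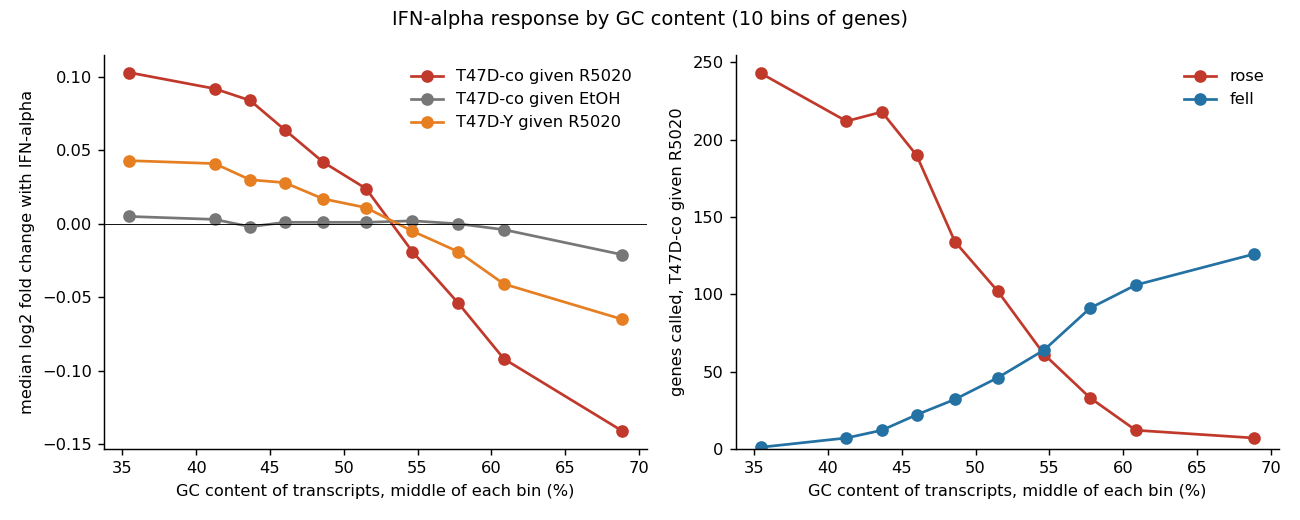
Left, median log2 fold change with IFN-alpha (y axis) by the middle GC content of each of the 10 bins (x axis, percent) in T47D-co given R5020 (red), T47D-co given EtOH (grey) and T47D-Y given R5020 (orange). Right, the number of genes that rose (red) and fell (blue) in T47D-co given R5020 in each bin, with 243 rises in the lowest and 126 falls in the highest.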

How the data were processed

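RNA-seq was made from total RNA of 24 cultures, extracted with Trizol and sequenced on an Illumina MiSeq, per the labels' protocols. Per the submitters' processing notes, the tools were TopHat2 2.0.12 and Cufflinks 2.2.1 and the genome build was GRCh37 (hg19). The authors deposited 1 table of normalized signal per entry and library, whose unit is not given in the sources used here. Within a library 97.4 to 98.7% of values of entries alone at their locus (60.4 to 65.2% of all entries) were whole multiples of 1 step, with a tolerance of 0.05 steps, so each value was divided by its library's step to give estimated fragments. The deposited scale had been set separately in blocks of 6 libraries, 1 for each line and IFN-alpha state. It was replaced by median-of-ratios factors over 14201 genes whose mean reached 50 fragments. Of 25541 entries, 25 that repeat 10 symbols were left out. Entries reaching 10 scaled fragments in 3 or more of the libraries were kept for testing, 20162 in all and 13032 of them of 1 protein-coding gene. IRF9 lies in a merged entry and was not analysed here. Values of a few other genes are not reported here, but these genes stay in the counts and medians.

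The fixed design allowed for FPKM-like values, and limma 3.58.1 (R 4.3.3) was used on log2(scaled fragments + 1) with a mean for each of 8 groups (16 residual and 8.05 prior degrees of freedom), so all groups share 1 estimate of the spread. Tests were two-sided, with Benjamini-Hochberg adjusted p under 0.05 as the threshold. Differences of response were contrasts of the same fit. The test of IFN-alpha in T47D-co given R5020 was also tried on simulated data with known changes. These were drawn around the real group means with the real spread and independent noise. They hold no composition or GC shift between the 2 groups, so they do not bear on such a shift. Tables were made with Python 3.11.15, numpy 2.4.6 and pandas 2.3.3. GC content came from GENCODE transcripts, and promoter sequences from RefSeq for GRCh38.p14, matched by symbol, so no coordinates of different builds were joined. A value at a summed locus comes from adding all entries of a locus before the fit.

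Named genes were the 15 largest rises and 15 largest falls among called entries of 1 protein-coding gene with a mean of at least 50 in a group and no overlap, up to 6 called members with the largest change of each list, the 8 largest differences in each direction, and a fixed set of pathway genes. Members of lists that were not called, called members beyond the 6, and the replication-dependent histone genes as a group were named after their values were seen. The members and lists were chosen with earlier results of these data known. Alternatives changed 1 choice at a time: scaling, pseudocount, filter, variance weights, libraries in the fit, a composition covariate, a replicate block, and each library left out. The GC and length corrections and the summed loci were added after seeing the data. Depth was 15375324 to 23845419 estimated fragments in the 6 libraries, and low levels carry the most counting error. Same-numbered libraries did not deviate together, so replicate numbers were not used as pairs.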

Additional observations from a re-analysis of the deposited data

Results flagged for a closer look

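The response to IFN-alpha differed between R5020 and EtOH in T47D-co, or between T47D-co and T47D-Y given R5020, in the genes named here, each by limma's test of the difference itself with Benjamini-Hochberg adjustment over 20162 entries. Some genes had a higher log2 change given R5020 than given EtOH, which can also be a smaller fall. Among these NEDD9, a scaffold protein of focal adhesions, went from a mean of 489.7 to 529.1 scaled fragments given R5020 and from 274.6 to 187.2 given EtOH. Its difference of 0.66 (adjusted p = 0.00376) was called in all 31 other settings, at 0.59 to 0.75. CYP1B1 differed by 0.91, also called in all 31, and CYP1A1 by 0.90, and both fell less given R5020. MOB3B differed by 0.85 and CHN2, a Rac-directed GTPase-activating protein, by 0.70, each losing its call in 3 of 31 settings. PCDH15 (0.91) lost its call in 15 settings, KCNH7 (0.73) in 8 and PKHD1 (0.60) in 6. KCNH7 stood at 0.33 at the low end of these settings.

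Among genes with a lower log2 change given R5020, LAMP3 differed by -1.56 and MLX, a partner of the MondoA and ChREBP transcription factors, by -0.45, both called in all 31 settings. MLX went from 735.8 to 595.6 given R5020 and from 661.6 to 728.9 given EtOH. TRIM14 differed by -0.47, CTNND2 by -0.93, KXD1 by -0.72, FAM167A by -0.48 and CAPN9 by -0.88. At their summed loci TRIM14, KXD1 and FAM167A were not called. CAPN9 lost its call in 21 settings, FAM167A in 13, KXD1 in 7 and CTNND2 in 3.

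Between the lines, genes with the higher log2 change in T47D-co were CYP1A1 (1.03), GPR110 (0.87), CYP1B1 (0.61), NCALD (0.51), PKHD1 (0.51), MAP2K6 (0.48), C7orf41 (0.44) and ACBD7 (0.42). CYP1A1 and CYP1B1 fell in both lines, by less in T47D-co. C7orf41 fell in both lines (2317 to 2063 scaled fragments in T47D-co, 1064 to 696.1 in T47D-Y), and its difference was called in all 27 settings that could test it. PKHD1 lost its call in 19 of 30, ACBD7 in 17, MAP2K6 in 14 and NCALD in 3. Antiviral genes with the lower response in T47D-co were IFI44L (-3.06), SAMD9L (-2.74), IFIT2 (-2.74), IFI44 (-2.58), IFI27 (-2.50), IFIT3 (-2.34) and RSAD2 (-2.15). Levels were low for some of these. In T47D-co the means went from 1.64 to 4.86 scaled fragments for IFI44L, 5.59 to 16.4 for SAMD9L and 5.56 to 23.1 for IFI44. In T47D-Y they went from 4.75 to 101 for IFI44L, 2.68 to 67.1 for SAMD9L and 4.53 to 105 for IFI44. At such levels the 1 added before the log2 shrinks the change. IFI27 was called in all 30 settings, IFIT2, SAMD9L and IFI44L in all but 1 each, and IFIT3 lost its call in 16, IFI44 in 11 and RSAD2 in 7. At the locus that IFIT2 and IFIT3 share, the summed difference was -0.73, still called. ALB, the serum albumin gene, also differed (-2.20, adjusted p = 0.0442), with means of 28670 and 27770 in T47D-co against 5.54 and 23.8 in T47D-Y, and lost its call in 14 of 30 settings.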

How the results depend on the processing

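The number of genes called for IFN-alpha in T47D-co given R5020 (2269) was 7201 on the deposited scale, 1406 with quantile normalization, 1362 with only these 6 libraries, 76 with the composition covariate, 1059 among entries alone at their locus, 1307 with the GC correction and 1258 with GC and length corrected (2042 for these genes uncorrected), and 1153 to 2991 without a library. The R5020 and EtOH difference (203) was 67 with quantile normalization, 74 with the total, 66 with the total without RN7, MALAT1 and RPPH1, 118 with only its groups, 118 with the 12 T47D-co libraries, 63 without the low-mitochondrial libraries, 38 with the covariate, 75 among entries alone at their locus and 75 to 416 without a library. The line difference (176) was 9481 on the deposited scale, 64 without the low-mitochondrial libraries, 59 with the covariate, 99 among entries alone at their locus, 310 with GC and 320 with GC and length corrected, and 104 to 230 without a library. Fewer entries were tested among those alone at their locus; for the other settings the cause was not tested.

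On the deposited scale, which moves the typical entry by more than 0.1, these log2 changes were among those that turned: JAK1 -0.06, STAT3 -0.08, PIAS1 -0.02, PDIA3 -0.04, PRLR -0.05, NRIP1 -0.03, ESR1 -0.04, RRM2 -0.04, RFC4 -0.04, ACACA -0.07, HSP90B1 -0.01, EDEM1 -0.07, DNAJC3 -0.07, MCL1 -0.09, MOB3B -0.08, NEDD9 -0.08, NCALD -0.05, ACBD7 -0.02, MALAT1 -0.09, SGK1 -0.01, TRIM21 -0.04, TIPARP -0.04 and EGFR -0.09. The line difference turned for STAT2 there (0.03) and for RN7SK with quantile normalization (0.43). At summed loci PDIA3 (-0.01), ATP5G1 (0.01) and FAM167A (0.02) turned, RN7SL1 with the covariate (12.81), and ZC3HAV1, at -0.10 to 0.02 without a library, without T47D-co R5020+water replicate 3 (0.02). Of 158 genes followed, 59 kept direction and call with the covariate, 105 on the deposited scale, 137 with quantile normalization and 119 of 150 with the GC correction.

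With the replicate number as a block the counts were 2255, 204 and 166, and 156 of the 158 genes kept their call, the exceptions being IFI44L and EDEM1. The numbers do not pair the libraries: deviations of same-numbered libraries correlated at -0.019, -0.02 and -0.056 across genes. Counting error limits the genes of lowest level, such as IFI44L, RSAD2 and CXCL10.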
